A study of Mus musculus with 9 samples.

Results

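The proteasome is the large protease that degrades ubiquitin-tagged proteins, and its subunit genes were read here as 1 module across 7 chromatin peak lists. The genes were chosen by name: protein-coding RefSeq mouse genes with the symbol Psma, Psmb, Psmc or Psmd followed by digits, leaving out Psmb8 and Psmb9. The rule found 37 of 21900 protein-coding genes, and 30 of them had a start in the RefSeq promoter table for GRCm38.p6. Psma8, Psmb1, Psmb2, Psmb7, Psmc3, Psmd3 and Psmd7 are the other 7 and were read at their gene ends. The material was thymus of C57BL/6J mice with T-cell lymphoma driven by MYCN, the gene of the transcription factor N-MYC. The labels do not give the promoter that drives MYCN, the age of the mice or which animal each library came from. Each antibody had 1 library: EZH2 and SUZ12 (subunits of Polycomb repressive complex 2), H3K27me3 (the repressive mark which that complex writes), N-MYC, the acetyltransferase p300, H3K27ac (a mark of active promoters and enhancers) and H3K4me3 (a mark of active or poised starts). The 2 input libraries were not used here.

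In the assembled proteasome, the 20S core is a barrel of stacked rings. The Psma genes encode the outer alpha rings, which gate entry, and most Psmb genes encode the inner beta rings, which hold the cutting sites. The 19S cap binds ubiquitin chains, unfolds the substrate with a ring of ATPases from the Psmc genes and removes ubiquitin in its lid. Dividing cells express most of these genes together, and MYC-family factors are known to occupy the promoters of many housekeeping genes. EZH2 is best known as the enzyme that writes H3K27me3 at silent developmental genes, where SUZ12 accompanies it.

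ChIPmentation is a chromatin immunoprecipitation in which a transposase adds the sequencing adapters on the beads. A gene counted as having a peak when a deposited peak overlapped the 1 kb on either side of a start by at least 1 bp. The value given for a gene is the fold enrichment of its strongest such peak, a ratio set by the authors and meaningful only within its own list. The lists held 9798 (N-MYC) to 123056 (H3K27me3) peaks, and the read depth behind them is not stated in the sources used here. Starts of T-lineage genes carried H3K4me3 and H3K27ac at 7 of 8 genes read, among them Cd3e, Lck and Tcf7. Ptcra, which marks immature thymocytes, had no peak in any list. Bcl11b, another T-lineage gene, also had H3K27me3, at 3.58. H3K4me3 was also present at 4 of 4 erythroid genes, 1 of 3 B-lineage genes, 1 of 3 myeloid genes and 1 of 6 thymic epithelial genes. The last list holds Psmb11, and its defining factor Foxn1 had no H3K4me3. H3K27ac was called at 4, 1, 1 and 3 genes of these groups, among them Foxn1 at 2.84. Its median was 25.2 over called T-lineage genes and at most 7.24 in the other groups. The part of such cells in the proteasome values was not tested. With 1 library per antibody no test could be made, so counts stand beside the share of all genes and differences are descriptions.

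Nearly every proteasome subunit gene had an active start that also carried EZH2, and no start had SUZ12 or H3K27me3. H3K4me3 lay at 29 of 30 genes, against 52.1% of all 17492 genes with a start, and H3K27ac at the same 29, against 52.2%. A p300 peak was called at 27 of 30, against 40.6% of all genes, and an EZH2 peak at 27 of 30, against 46.0%. SUZ12 was called at 0 of 30 (12.8% of all genes) and H3K27me3 at 0 of 30 (24.3%). N-MYC was called at 20 of 30, against 34.0% of all genes.

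Part of the contrast with all genes was shared by other genes with H3K4me3. Among the 9119 genes with H3K4me3 at the start, N-MYC was called at 64.8%, which is close to the 66.7% of the proteasome genes. The corresponding shares were 77.5% for p300, 93.4% for H3K27ac and 74.0% for EZH2, and 90.0% of proteasome genes had EZH2. For SUZ12 and H3K27me3 these shares were 9.60% and 14.5%. The proteasome shares are of all 30 genes and so include Psmb11, which had no H3K4me3. H3K4me3, H3K27ac, p300, N-MYC and EZH2 are called the 5 active lists here, and SUZ12 and H3K27me3 the Polycomb lists. The names serve for grouping only, and what EZH2 does at these starts was not tested. All 5 active lists together, with neither Polycomb list, marked 19 of 30 proteasome starts (63.3%), against 25.4% of all genes and 48.7% of genes with H3K4me3. All 20 genes with N-MYC also had EZH2, against 83.5% of the 5911 genes with H3K4me3 and N-MYC. Another 7 had EZH2 without N-MYC, as did 1811 of the 9119 genes with H3K4me3. The overlap of N-MYC with EZH2 depended on the length of the lists: with each limited to as many peaks as the N-MYC list, the shortest, EZH2 was at 18 genes and N-MYC at 20. Psma2, Psma4, Psmb3, Psmd2, Psmd5 and Psmd8 then had N-MYC without EZH2. With only peaks of a q-value of at most 1e-05, Psmb3 and Psmd5 did. The share of 83.5% holds for the full lists only. No share of other genes is given for the shortened or filtered lists, so these overlaps cannot be called high or low.

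**Figure D1:**
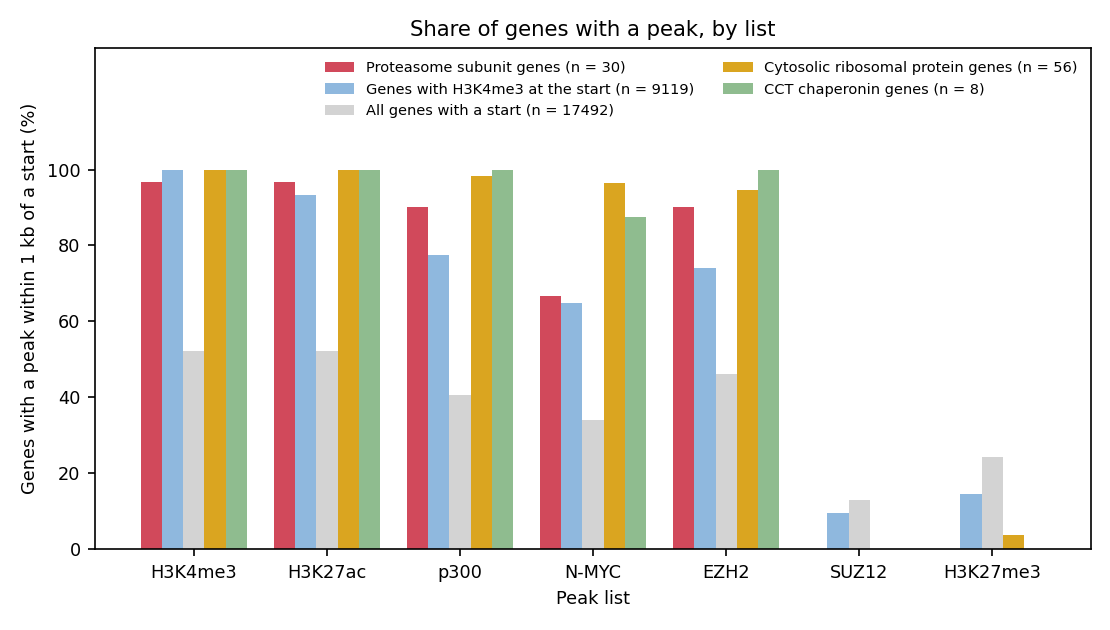
Share of genes with a peak within 1 kb of a start (percent, bars from 0) in each of the 7 lists, for proteasome subunit genes, genes with H3K4me3, all genes with a start, ribosomal protein genes and CCT chaperonin genes. The proteasome bar for N-MYC (66.7%) is near that of genes with H3K4me3 (64.8%), and it has no bar in the SUZ12 and H3K27me3 lists.

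The strength of the peaks differed by list. The median H3K4me3 fold enrichment over the 29 genes was 35.2, from 17.7 at Psmb3 to 40.8 at Psma3, against a median of 26.6 over all genes with that peak, and 20 of the 29 were above it. H3K27ac had a median of 15.2, from 6.00 at Psmd10 to 24.4 at Psma3, against 12.4, with 18 of 29 above. N-MYC had a median of 5.65, from 2.70 at Psmd2 to 10.3 at Psmc2, against 6.01, and only 8 of its 20 genes were above. So the histone marks of active starts stood mostly above the middle of their lists, while N-MYC stood mostly below. EZH2 (median 5.69, from 3.12 at Psmd2 to 9.0 at Psmd6, against 5.83) and p300 (median 5.57, from 2.89 at Psma4 to 8.38 at Psmd5, against 5.40) lay near the middle. The H3K4me3 peaks were no broader than usual, with a median width of 2528 bp against 2505 bp.

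The promoter sequences that hold an E-box are shown because MYC-family factors bind this motif. The E-box CACGTG is the preferred site of MYC and MAX, and CACGCG is a variant that they also bind. Both were searched on both strands of the RefSeq window from 250 bases before to 50 bases after each start. CACGTG was present at 3 of 30 genes, against 8.91% of all promoters and 12.2% of promoters with H3K4me3. Capitals below mark the motif, each sequence runs 5′ to 3′ along the gene, and positions count from the start base as 0. The 3 CACGTG windows are Psma4 at chr9:54950697-54950746 (plus strand), Psmb10 at chr8:105938481-105938530 (minus strand) and Psmd9 at chr5:123228117-123228166 (plus strand), all in GRCm38.p6. These and the windows shown further on lie upstream of the annotated gene, outside its exons and introns.

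Psma4: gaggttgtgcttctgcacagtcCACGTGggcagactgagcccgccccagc

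Psmb10: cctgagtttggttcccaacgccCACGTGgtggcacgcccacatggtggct

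Psmd9: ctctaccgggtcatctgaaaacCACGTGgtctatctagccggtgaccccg

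The same letters stood beside different N-MYC values. In Psma4 the motif began at position -140, 10 bp from the nearest N-MYC summit, and the peak had a fold enrichment of 4.54. In Psmb10 it began at -116, 110 bp from the summit of a peak of 4.88. Psmd9, with the motif at -51, had no N-MYC peak. N-MYC was called at 2 of these 3 genes and at 18 of the 27 without CACGTG, which is 66.7% in both.

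CACGCG was present at 7 genes (23.3%, against 13.7% of all promoters and 21.6% with H3K4me3): Psma3, Psma4, Psmc2, Psmc4, Psmd2, Psmd5 and Psmd14. All 7 had N-MYC, and in 5 of them the motif began within 100 bp of an N-MYC summit. Other motifs, described further on, also lay this near in genes with N-MYC: GGGCGG in 10 of 13 and CCGGAA in 6 of 9. CCAAT did so in 2 of 7. Nearness was thus not particular to CACGCG, and the N-MYC share of all promoters with CACGCG alone is not given here. The windows shown are Psmc4 at chr7:28050231-28050280 (minus strand) and Psmd5 at chr2:34871062-34871111 (minus strand). They are 2 examples in which the motif lay 58 and 64 bp from the summit. In Psmc2 the motif lay at the second start, 59 bp from the summit of the weaker of 2 N-MYC peaks. It lay 2 bp from a summit in Psmd2, whose N-MYC peak was the weakest of the module.

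Psmc4: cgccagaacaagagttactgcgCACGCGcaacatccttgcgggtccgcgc

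Psmd5: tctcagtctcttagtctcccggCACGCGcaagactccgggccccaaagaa

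With either E-box, 8 of 9 genes had N-MYC (88.9%), and without either, 12 of 21 had it (57.1%). These 21 include Psmb11, which had no H3K4me3. Among all genes with H3K4me3 the shares were 78.2% and 58.9%, and for CACGTG alone 78.0% and 63.0%. The promoters with either E-box made up 30.0% of proteasome genes, 20.8% of all promoters and 30.9% of those with H3K4me3. The median N-MYC fold enrichment of the proteasome genes was 5.52 with either E-box and 6.06 without, while over all genes with H3K4me3 it was 6.47 and 5.81. The N-MYC value of Psmc2, counted here with an E-box, comes from a peak at the first of its 2 starts. Its CACGCG lies at the second start. The genes with the next highest N-MYC values after Psmc2, which are Psmc5, Psmb3 and Psma7, had neither motif in the window.

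CCGGAA, the core of sites for ETS-family factors, stood furthest above its share in promoters with H3K4me3 among the 6 motifs searched, without a test. It was present at 15 of 30 genes (50.0%), against 20.9% of all promoters and 34.1% of those with H3K4me3. The 23 sites overlapped in part where a motif met its own reverse complement, as in Psmd4. In 13 of the 15 genes a site lay at position -100 or further downstream, and the median position of the site nearest to the start was -23. The same held for CCAAT in 9 of 12 genes (median -36) and for GGGCGG in 14 of 18 (-46), both described further on. For CACGCG it held in 4 of 7 (-79). No share of other promoters is given for this position. Shown are Psmc2 at chr5:21785170-21785219, Psmc5 at chr11:106256068-106256117 and Psmc1 at chr12:100110153-100110201, all on the plus strand. The first 2 are the ATPase genes with the highest N-MYC values, and Psmc1 is an ATPase gene without an N-MYC peak.

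Psmc2: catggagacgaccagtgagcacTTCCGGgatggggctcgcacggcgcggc

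Psmc5: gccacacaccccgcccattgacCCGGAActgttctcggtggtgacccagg

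Psmc1: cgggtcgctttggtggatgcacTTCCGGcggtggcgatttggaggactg

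In Psmc2 an N-MYC summit fell on the motif (0 bp), which began at -83 from the first of its 2 starts, and in Psmc5 the motif lay 61 bp from the summit. N-MYC was called at 9 of 15 genes with CCGGAA and at 11 of 15 without (60.0% and 73.3%), against 69.5% and 62.4% among genes with H3K4me3. The proteasome genes without CCGGAA include Psmb11, which had no H3K4me3. TGACNNNGC, the core of the element bound by NFE2L1 and NFE2L2, the factors known to induce proteasome genes when the protease is inhibited, was found at 5 genes. These were Psmb5, Psmb6, Psmc6, Psmd9 and Psmd12, or 16.7%, against 14.8% of all promoters and 17.0% of those with H3K4me3.

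CCAAT, the site of the factor NF-Y, was present in 12 of the 30 subunit promoters, against 42.3% of all promoters and 43.5% of those with H3K4me3. GGGCGG, the GC box that SP-family factors bind, was present in 18 (60.0%), against 49.2% and 71.5%. Neither was more frequent than in promoters with H3K4me3.

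All 7 alpha-ring genes had H3K4me3, H3K27ac, p300 and EZH2, as did all beta-ring, base ATPase and lid genes read at a start. Psma3, a ring subunit, had the highest H3K4me3 and H3K27ac of all proteasome genes (40.8 and 24.4), with p300 at 6.14, N-MYC at 5.45 and EZH2 at 8.01. Psma7, also a ring subunit, had the highest N-MYC of the ring at 6.69, with EZH2 at 7.90. Psma1 (N-MYC 6.48, EZH2 6.82) and Psma2 (6.17 and 4.44) followed. Psma4 carried the lowest p300 peak of the module at 2.89, and its EZH2 peak of 3.46 was higher than in only 3.42% of genes with EZH2. Psma5 had the lowest H3K27ac of the ring at 9.0, with N-MYC at 4.67 and EZH2 at 6.03. Psma6 was the 1 alpha gene without N-MYC, although it had H3K4me3 at 23.2, H3K27ac at 16.9, p300 at 3.66 and EZH2 at 3.77. The order of the ring genes differed between lists.

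Of the beta-ring genes, Psmb3, Psmb4, Psmb5 and Psmb6 had a start in the table, and their values were lower in several lists. The median EZH2 fold enrichment was 4.59, against 6.03 for the alpha ring, and the median H3K4me3 was 25.8 against 35.2. Psmb1, Psmb2 and Psmb7, read at gene ends, are not in these medians. Their EZH2 was 8.01, 6.01 and 5.25, and their H3K4me3 39.2, 31.8 and 23.0. The contrast between the rings thus describes only the genes read at a start. Psmb5 encodes the chymotrypsin-like catalytic subunit, the main target of proteasome inhibitor drugs. It had H3K4me3 at 33.1, H3K27ac at 19.5, p300 at 5.57 and EZH2 at 6.10, but an N-MYC peak of only 3.54, which was higher than in 4.09% of genes with N-MYC. Psmb6, the caspase-like catalytic subunit, had no N-MYC peak, with H3K4me3 at 24.7 and EZH2 at 4.79. Psmb3, a subunit without a cutting site, had the lowest H3K4me3 of the module (17.7) and the lowest EZH2 of the ring (3.68), yet the highest N-MYC of the ring at 6.88. Psmb4, likewise without a cutting site, had N-MYC at 3.87 and EZH2 at 4.40.

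The inducible and tissue-restricted forms split sharply. Psmb10, which replaces Psmb7 in the immunoproteasome of immune cells, was marked like the standard subunits, with H3K4me3 at 37.1, H3K27ac at 16.5, p300 at 5.99, N-MYC at 4.88 and EZH2 at 6.06. Psmb11, the catalytic subunit of cortical thymic epithelium, had no peak in any of the 7 lists. Its nearest peak in an active list was an H3K27ac peak of 3.06, at 3824 bp from the start. Psmb5 lies next to Psmb11 on chromosome 14, with the starts 7315 bp apart, so a fully marked and an unmarked subunit gene are neighbours. Psma8, the alpha form of the testis, had peaks only in the H3K27me3 list, 2 near 1 gene end with fold enrichment of 5.07 and 3.56.

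The ATPase genes of the 19S base had the highest N-MYC median of the role groups with more than 1 called gene, 6.90, over 4 of 5 genes. Psmc2 led the module in N-MYC with 10.3, a value above 89.8% of genes with N-MYC, and it also had p300 at 7.71 and EZH2 at 8.19. Psmc5 followed with N-MYC at 7.85 and p300 at 7.51, on an H3K4me3 peak of 23.8. Psmc4 (N-MYC 5.72, EZH2 5.69) and Psmc6 (5.95 and 6.82) had lower N-MYC values. Psmc1 had no N-MYC peak, although its H3K4me3 of 40.3 and EZH2 of 8.01 were among the highest of the module. Among ATPases, then, strong H3K4me3 and EZH2 occurred both with and without an N-MYC call.

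Of the 3 base subunits that are not ATPases, 1 had an N-MYC call, a weak one at Psmd2. Psmd1 and Psmd2 encode the scaffolds that receive substrates, and Psmd4 encodes a ubiquitin receptor. Psmd2 had the lowest N-MYC (2.70) and EZH2 (3.12) of the module, and no p300 peak. Its N-MYC value was above that of only 0.286% of genes with N-MYC. Psmd1 had H3K4me3 at 39.1, H3K27ac at 9.94, p300 at 3.52 and EZH2 at 7.14 without N-MYC. Psmd4 had H3K4me3 at 35.4, H3K27ac at 11.9, p300 at 4.81 and EZH2 at 6.03, also without N-MYC. In this group 1 of 3 genes had N-MYC (34.0% of all genes) and all 3 had EZH2 (46.0%), too few genes to describe the role.

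The lid genes all had EZH2 and p300, and 4 of 6 had N-MYC. Psmd14, the deubiquitinase that frees substrates of their ubiquitin chain, had H3K4me3 at 25.3, H3K27ac at 22.7, p300 at 6.02, N-MYC at 5.59 and EZH2 at 4.56. Psmd6, a lid scaffold, had the highest EZH2 of the module at 9.0, above 89.3% of genes with EZH2, with an N-MYC peak of 4.47. Psmd8 had the highest N-MYC of the lid at 6.17 and H3K27ac at 23.3. Psmd11 had H3K4me3 at 40.2 with N-MYC at 4.35 and EZH2 at 4.81. Psmd12 (H3K27ac 22.4, EZH2 6.33) and Psmd13 (7.90 and 4.41) had no N-MYC peak. EZH2 in the lid thus ran from 4.41 at Psmd13 to 9.0 at Psmd6.

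Of the 3 chaperones that assemble the base, Psmd5, Psmd9 and Psmd10, 1 had EZH2 and N-MYC and 2 had neither. Psmd5 had a peak in all 5 active lists, with the highest p300 of the module (8.38), N-MYC at 6.11 and EZH2 at 4.24. Psmd9 had H3K4me3 at 25.5, H3K27ac at 8.29 and p300 at 6.14, and neither N-MYC nor EZH2. Psmd10, which encodes gankyrin, a protein also studied as an oncogene in liver cancer, had H3K4me3 at 19.7 and the lowest H3K27ac of the module, 6.00, and no other peak. Apart from Psmb11, Psmd9 and Psmd10 were the only genes read at a start without EZH2.

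**Figure D2:**
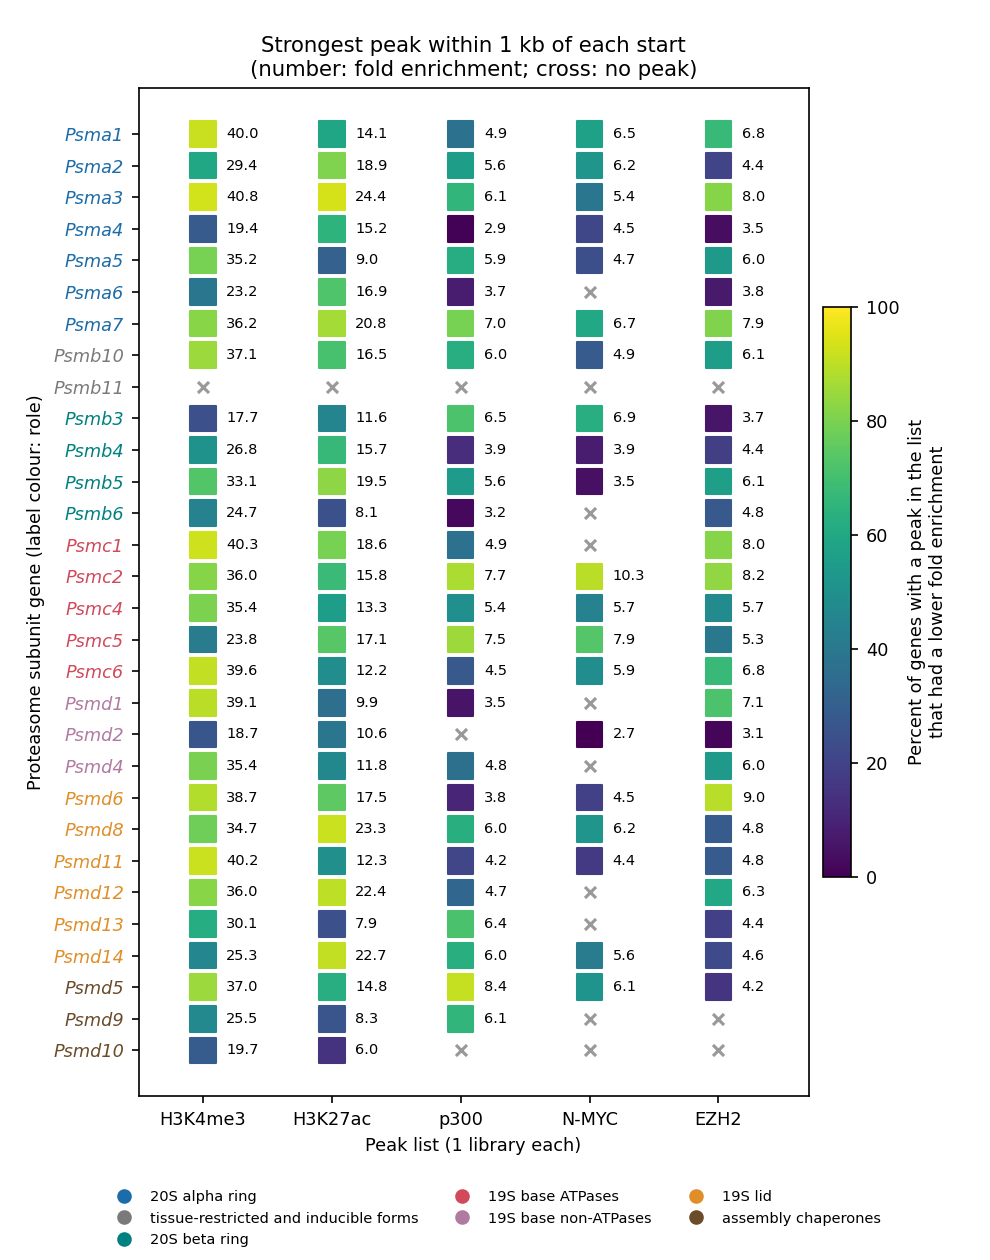
Fold enrichment of the strongest peak at the start of each of the 30 proteasome genes (rows, by role) in the 5 active lists (columns), printed beside a square whose colour gives the percent of genes with a peak that had a lower value, with a cross for no peak. Psmb11 has a cross in all columns, and Psmd9 and Psmd10 have crosses for EZH2 and N-MYC.

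The 10 genes without N-MYC at the start were Psma6, Psmb6, Psmb11, Psmc1, Psmd1, Psmd4, Psmd9, Psmd10, Psmd12 and Psmd13. None of them had an N-MYC peak within 5 kb of a start, and none had one anywhere on the H3K4me3 peak of its start. Of these 10, 9 had H3K4me3 and H3K27ac, 8 had p300 and 7 had EZH2. Among all genes with H3K4me3 and no N-MYC, 1811 had EZH2 and 1397 did not. H3K4me3 ran from 19.7 to 40.3 (median 30.1) over those 9 and from 17.7 to 40.8 (median 35.3) over the 20 with N-MYC, so the ranges overlapped almost fully. H3K27ac had medians of 9.94 without and 15.8 with N-MYC, and p300 medians of 4.75 and 5.95. EZH2 was the reverse, with medians of 6.03 without and 5.51 with N-MYC. A missing peak means that no call passed the authors' threshold, not that the protein was absent.

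Genes were also placed by the strength of their H3K4me3 peak, because EZH2, N-MYC, p300 and H3K27ac were called more often on stronger H3K4me3. In the strongest of 4 equal groups of genes with H3K4me3 (fold enrichment 33.8 to 52.0, 2279 genes) there were 16 of the 29 proteasome genes with that mark. All 16 had EZH2, against 99.0% of genes in that group, and all 16 had p300, against 97.3%. From the second strongest to the weakest group, EZH2 was called at 4 of 4 proteasome genes (91.5% of the group), 6 of 8 (64.8%) and 1 of 1 (40.7%). For p300 these were 4 of 4 (92.5%), 6 of 8 (82.0%) and 1 of 1 (38.0%). EZH2 and p300 calls were thus more frequent with stronger H3K4me3 in the series as a whole, and the proteasome genes lay close to that gradient. N-MYC was called at 12 of the 16, or at fewer than the 84.9% of that group. In the weaker groups N-MYC was called at 3 of 4 genes (74.9% of the group), 4 of 8 (66.1%) and 1 of 1, which was Psmb3 (33.4%). Within the strongest group the proteasome genes had lower median fold enrichment than all its genes for EZH2 (6.58 against 7.14), N-MYC (5.83 against 6.54), p300 (5.15 against 5.96) and H3K27ac (15.3 against 16.9). So the module's EZH2 share was close to that of other genes with such strong H3K4me3, at slightly lower fold enrichment.

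Across the proteasome genes EZH2 fold enrichment followed H3K4me3 and N-MYC followed p300. Spearman's rho between H3K4me3 and EZH2 was 0.769 over 27 genes, against 0.452 over 6747 genes of the series. Between p300 and N-MYC it was 0.690 over 19 genes, against 0.394 over 5543 genes. N-MYC was nearly unrelated to H3K4me3 (0.011 over 20 genes, against 0.181 over 5911). It was weakly related to EZH2 (0.211 over 20, near the 0.179 over 4948 genes). H3K4me3 and p300 had a rho of -0.034 over 27 genes, against 0.263 over 7063. H3K4me3 and H3K27ac had one of 0.274 over 29, against 0.502 over 8519 genes. Psmd5 departed from the first of these patterns, with H3K4me3 at 37.0 and EZH2 at only 4.24. It had the highest p300 of the module. In all, 10 pairs were computed. The points of a pair come from the same 2 libraries and the same promoters, so these are descriptions with no p.

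**Figure D3:**
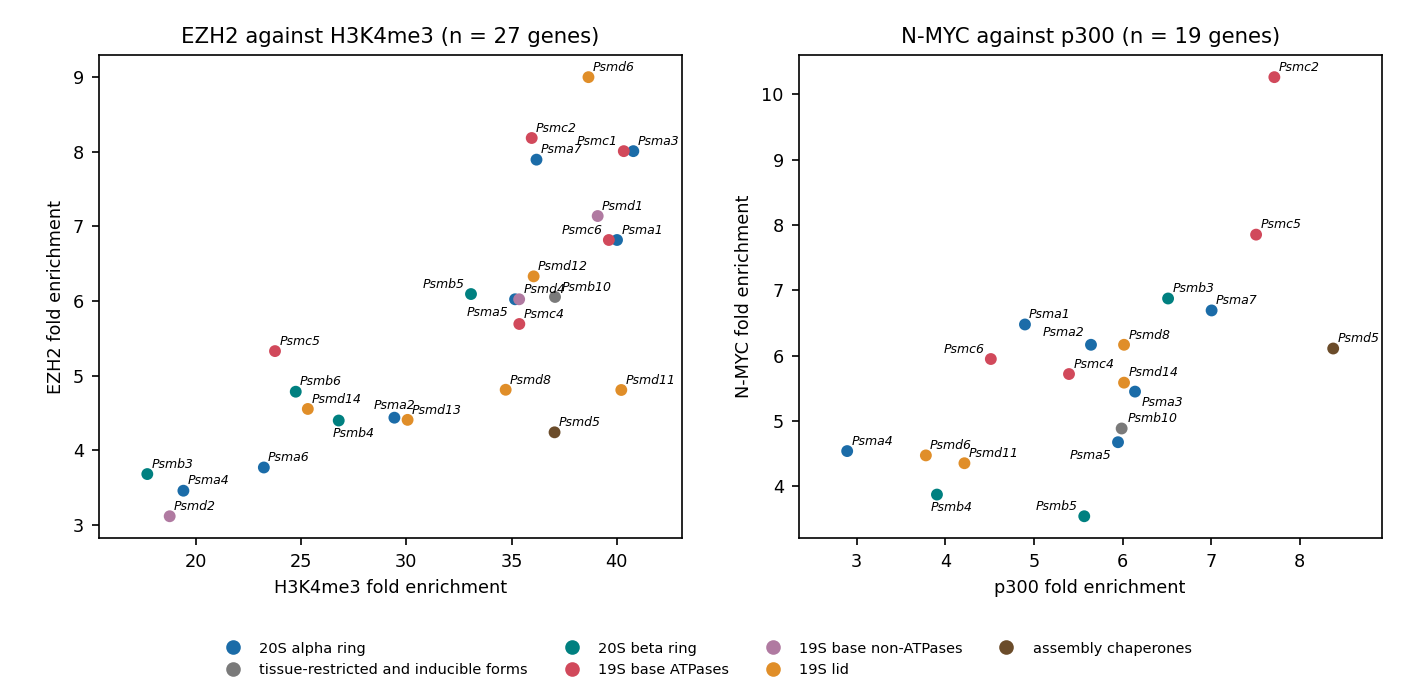
Left, EZH2 against H3K4me3 fold enrichment at 27 proteasome genes, and right, N-MYC against p300 at 19, with 1 labelled point per gene coloured by role. Psmd2, Psma4 and Psmb3 are at the low end on the left and Psmd6 is the highest, and on the right Psmc2 and Psmc5 are the highest in N-MYC.

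The summits gave each protein a typical place at the start, read over the 28 genes with a single start. H3K4me3 summits lay a median of 267 bp downstream of the start, with 25 of 27 downstream (92.6%), and H3K27ac summits a median of 242 bp downstream, with 23 of 27. EZH2 summits lay a median of 232 bp downstream, with 22 of 25 downstream (88.0%). N-MYC summits lay at a median of -42 bp, all between -252 and 246 bp, and only 6 of 19 were downstream (31.6%). p300 lay between them, at a median of 63 bp. Over all genes with a single start the medians were 282 bp for H3K4me3, 239 bp for H3K27ac, 270 bp for EZH2, -20 bp for p300 and -3 bp for N-MYC. The downstream shares over those genes were 85.0% for H3K4me3, 72.2% for H3K27ac, 80.6% for EZH2 and 49.2% for N-MYC. A mostly downstream place of H3K4me3, H3K27ac and EZH2 was thus shared by other genes. EZH2 thus stood where the H3K4me3 summit stood, a median of 84 bp from it, and a median of 275 bp from the N-MYC summit of the same gene. Over all genes these distances were 111 and 317 bp.

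In most single genes the order was the same. In Psma4 the N-MYC summit was at -128 bp, and the EZH2 and H3K4me3 summits at 230 and 228 bp. In Psmc6 they were at -138, 252 and 292 bp. Psmc5 was an exception, with EZH2 at -12 bp close to N-MYC at -32 bp and H3K4me3 at -605 bp, and it shares its promoter region with Ftsj3. Psmb3 had its EZH2 summit at -794 bp, far from its H3K4me3 summit at 267 bp. In Psmb10 the strongest EZH2 and p300 summits were at 1087 and 1104 bp, past the window, although the peaks reached into it.

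**Figure D4:**
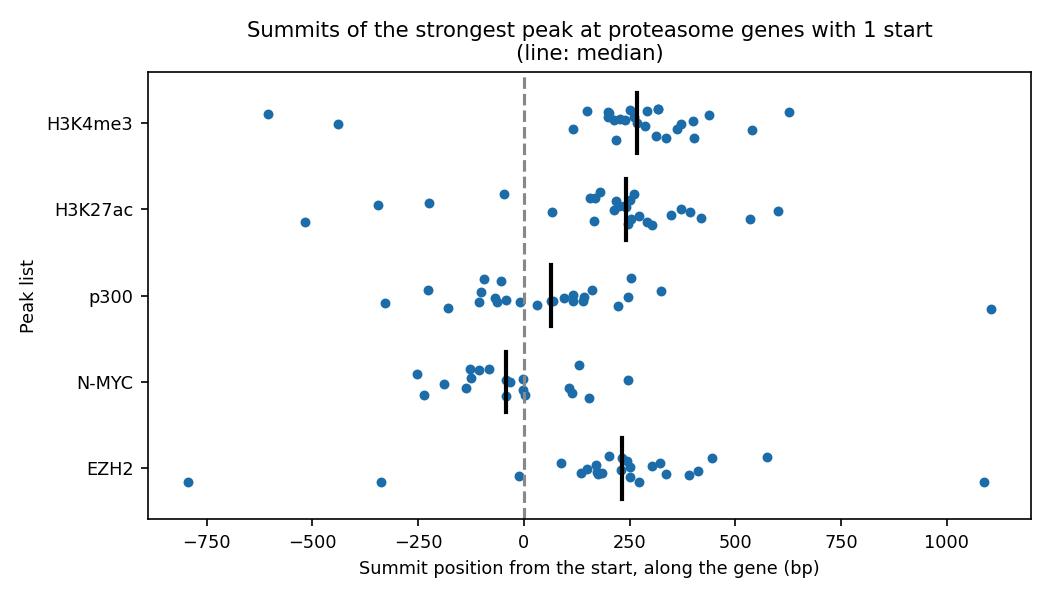
Position of the summit of the strongest peak relative to the start (bp, positive downstream) at proteasome genes with a single start, for the 5 active lists, with 1 point per gene and the median marked. N-MYC points group around the start (median -42 bp) and those of EZH2 and H3K4me3 lie mostly downstream (medians 232 and 267 bp).

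Between 1 and 5 kb from a start, SUZ12 or H3K27me3 peaks lay near 3 of the 30 genes, always upstream. The share of all genes with such peaks at that distance is not given here, so the count cannot be called high or low. Psma4 had H3K27me3 peaks of 6.83, 6.26 and 3.79 at 1936, 3892 and 4988 bp from its start. Psmc4 had peaks of 3.73, 4.40 and 7.30 at 2898, 3505 and 3904 bp. Psmb3 had H3K27me3 of 4.26 at 1831 bp and the only SUZ12 peak within 5 kb of any proteasome start, of 3.25 at 3475 bp. EZH2 at the starts of Psma4, Psmc4 and Psmb3 was 3.46, 5.69 and 3.68, none of them above the module's median of 5.69.

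The 7 genes without a start in the table were read within 1 kb of either gene end, with no strand used. Each had peaks at 1 end only, and 6 of 7 had H3K4me3, H3K27ac, p300 and EZH2 there. N-MYC was called at 5 of 7, at all except Psma8 and Psmc3. Psmd7, the lid partner of the deubiquitinase Psmd14, had the highest N-MYC of these, slightly below that of Psmc2, with EZH2 at 7.78 and p300 at 7.51. The ATPase gene Psmc3 had H3K4me3 at 39.6 and EZH2 at 8.24 without N-MYC, the combination also seen at Psmc1. The trypsin-like catalytic subunit Psmb7 had N-MYC at 4.03 and EZH2 at 5.25. The beta subunits Psmb1 and Psmb2 had N-MYC at 4.12 and 6.62 and EZH2 at 8.01 and 6.01, and the lid gene Psmd3 had 4.22 and 6.88.

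Read at either end, all 37 genes gave H3K4me3 at 34 (50.0% of 21887 genes read so), H3K27ac at 35 (52.4%), p300 at 32 (38.4%), EZH2 at 32 (44.3%) and N-MYC at 24 (32.0%). SUZ12 stayed at 0 (13.8%) and H3K27me3 was at 2 (27.6%), Psma8 and Psmd8. The Psmd8 peak, of 10.1, lay at the end opposite to its start. The reading loses calls at Psma3, whose start lies inside the annotated gene span, and at Psma6, of whose 2 starts the second lies inside it.

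Genes that act with the proteasome but fall outside the naming rule were read from a list of 31, of which 25 had a start. H3K4me3, H3K27ac and p300 were called at all 25, EZH2 at 22, N-MYC at 20, and SUZ12 and H3K27me3 at 0. Their median N-MYC was 7.21, above the 5.65 of the subunit genes, and their median EZH2 was 6.51. The highest N-MYC was 17.8 at Psme3, which encodes a nuclear proteasome activator, and the lowest 3.27 at Psmb9. The highest EZH2 was 11.0 at Ubqln1, a shuttle factor for ubiquitinated substrates, and the lowest 3.57 at Psme1, a subunit of the interferon-induced activator. Chosen after their values were seen, the immunoproteasome genes Psmb8 and Psmb9 are set beside Psmb10. Psmb8 had H3K4me3 at 30.8 and EZH2 at 5.79 without N-MYC, and Psmb9 had 41.7 and 7.22 with the weak N-MYC peak named above. Nfe2l1 and Nfe2l2, the inducers of proteasome genes, had N-MYC at 7.89 and 12.3, also named after their values were seen.

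Compared with other housekeeping machines, the proteasome genes had fewer and weaker N-MYC peaks, without a test of the difference. Of 56 genes of cytosolic ribosomal proteins, 54 had N-MYC (96.4%), with a median fold enrichment of 8.72, and of 8 genes of the CCT chaperonin, which folds actin and tubulin, 7 had it, with a median of 9.82. EZH2 was at 53 of 56 ribosomal protein genes (median 7.51) and at 8 of 8 chaperonin genes (7.01), against a median of 5.69 for the proteasome. H3K4me3 was similar in the 3 groups, with medians of 36.8, 35.3 and 35.2. H3K27ac was 21.9 and 24.9 in the other groups, against 15.2. All 5 active lists without Polycomb marked 87.5% of genes in both other groups, against 63.3% of proteasome genes.

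**Figure D5:**
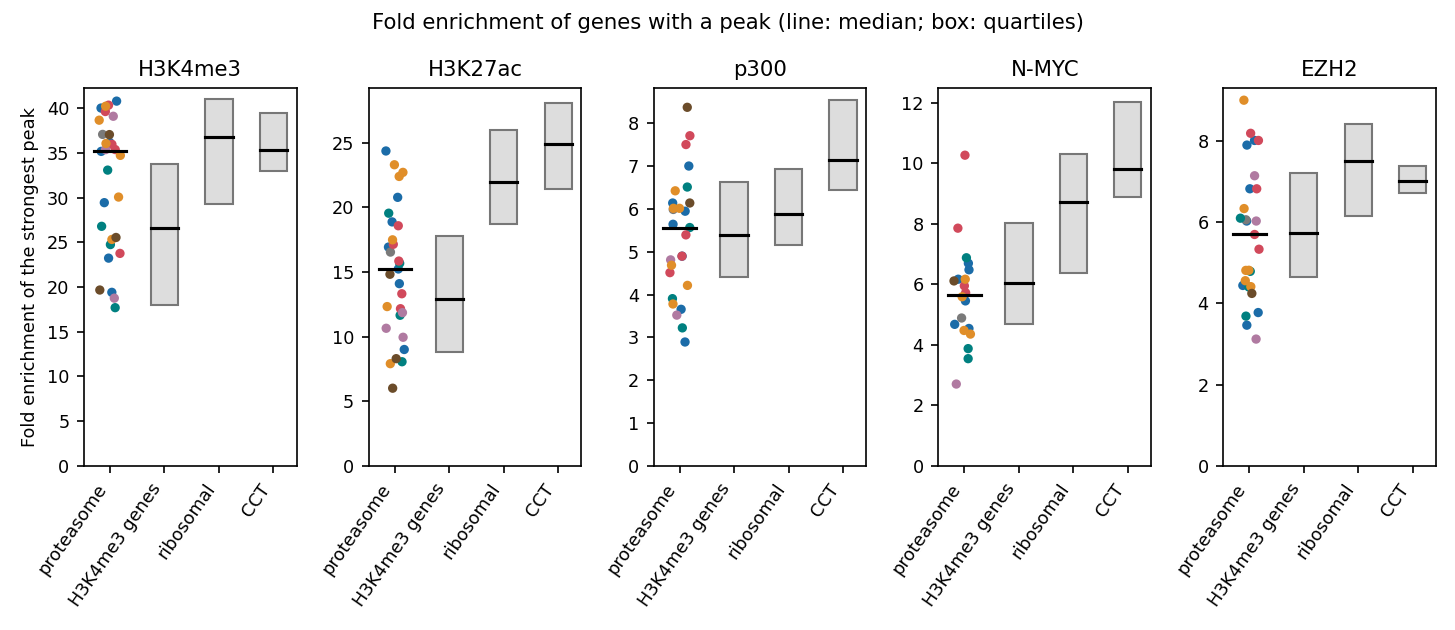
Fold enrichment of the strongest peak at each start in the 5 active lists, with 1 point per proteasome gene (coloured by role, line at the median) beside boxes of quartiles and medians for genes with H3K4me3, ribosomal protein genes and CCT chaperonin genes. The proteasome medians for N-MYC (5.65) and H3K27ac (15.2) are below those of the ribosomal protein genes (8.72 and 21.9) and chaperonin genes (9.82 and 24.9).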

How the data were processed

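Chromatin of MYCN-driven T-cell lymphoma from thymus was profiled with 7 antibodies by ChIPmentation, per the labels' protocols, with 1 library each. FastQC, Bowtie2, SAMtools, MACS2 and deepTools, and the builds mm10 and GRCm38, are named in the submitters' processing notes, without version or role. Whether the inputs served as controls is not given in the sources used here. The authors deposited 1 peak list per antibody, with no header, and the columns were identified from layout and values. Fold enrichment, a ratio of signal to background on a linear scale, was used as deposited by the authors. The p-value and q-value are −log10 values as deposited, and the lists end near a −log10 q of 2.0. A deposited whole-number score entered no result.

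Starts, strand and promoter sequence came from RefSeq GRCm38.p6, and 30 of 37 genes matched. As a check of the build, 52.1% of genes had H3K4me3 at a start, and 5.46% and 5.81% after starts were shifted by 10000 and 100000 bp. Calls needed an overlap of 1 bp with the 1 kb on either side of any start, and the strongest peak gave the value. Motifs were matched on both strands. Python 3.11.15, pandas 2.3.3, numpy 2.4.6 and matplotlib 3.10.9 were used. In simulated lists, 200 of 200 planted calls were recovered. Every gene of the module is accounted for. Of other proteasome genes, those with the highest and lowest N-MYC and EZH2 values were named, and any without H3K4me3 or with Polycomb. The genes and lists were chosen with earlier results of these data known. Alternatives varied window, overlap, threshold, list length, starts and motif.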

Additional observations from a re-analysis of the deposited data

How the results depend on the processing

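Of 92 alternatives to 14 counts and medians, 87 stayed within 1.5 times the reported value. SUZ12 went from 0 to 1 gene (Psmb3) with 5 kb on either side. H3K27me3 went from 0 to 2 genes (Psma4 and Psmb3) with 2 kb, to 3 (also Psmc4) with 5 kb, and to 2 (Psma8 and Psmd8) when all 37 genes were read at either gene end, a reading chosen after seeing the data. Genes with an E-box went from 3 with CACGTG to 9 with CACGTG or CACGCG. Over the 30 genes read at a start, N-MYC stayed between 17 and 20 genes and EZH2 between 18 and 27. The lowest EZH2 count came with every list limited to the length of the shortest, at the edge of the 1.5 times. Over all 37 genes read at either gene end, N-MYC was at 24 and EZH2 at 32. Apart from the reading at gene ends and the E-boxes, these alternatives have no share of all genes beside them. Without the 5 genes that share a promoter region, N-MYC was at 17 of 25 and EZH2 at 23 of 25. Read depth is unknown, so a missing call sets no limit on binding. No paired analysis was possible because each antibody had 1 library and no test was made.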

Other observations

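Of the 30 proteasome genes, 5 had the start of another gene on the opposite strand within 1 kb, so that their peaks could not be assigned to 1 of the 2 genes. Psma7 and Ss18l1 started 19 bp apart, Psmd13 and Sirt3 85 bp, Psmc5 and Ftsj3 101 bp, Psmd10 and Atg4a 196 bp, and Psma2 and Mrpl32 205 bp apart. Ss18l1 encodes a subunit of a chromatin remodeller of neurons, Sirt3 a mitochondrial deacetylase and Mrpl32 a mitochondrial ribosomal protein. Among the shared starts N-MYC was highest at Psmc5 (7.85) and EZH2 at Psma7 (7.90), and Psmd10 had neither. Only genes with a start in the promoter table were examined.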
